A study of Mus musculus with 24 samples.

Results

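Knockdown of Nsun2 in Tet2-KO mouse embryonic stem (mES) cells was followed by lower DNA 5-methylcytosine (5mC) signal at 165 windows of the nuclear genome and by higher signal at 10. These 175 windows of 100 bp, out of 244 listed for this comparison and of 14618 distinct windows listed in the whole series, were taken as every listed window outside the mitochondrial genome and outside chromosome 1 from 24612601 to 24614200, a nuclear copy of mitochondrial sequence. Touching windows of one direction merged into 88 lower and 6 higher regions. Of the 88 lower regions, 33 on 16 chromosomes shared repeat sequence with each other, and 32 of these lay within 1 kb of a stretch resembling the IAPEz RNA target of the study. The other 55 were mostly unmasked and often lay in genes, and 2 of them, on chromosome 2, shared sequence with each other.

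NSUN2 is a methyltransferase that places 5-methylcytosine (m5C) on RNA. TET2 is a dioxygenase that oxidizes 5mC in DNA and m5C in RNA, and it is expressed in mES cells. IAP elements, of which IAPEz is a class, are long terminal repeat retrotransposons of the mouse that are kept silent in part by DNA methylation and are transcribed at a low level in mES cells.

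DNA methylation was read by MeDIP-seq. Methylated fragments are enriched with a 5mC antibody before sequencing. The 6 libraries compared came from Tet2-KO mES cells given a control siRNA (siNC) or an Nsun2 siRNA (siNsun2), 3 libraries each, so all of them lacked TET2. The rest of the 24 samples came from wild-type (WT) cells with the same siRNAs and from WT and Pspc1-KO cells for which the labels name no siRNA. All cells were kept in medium with serum, LIF, CHIR99021 and PD0325901, and feeder cells were removed by passage on gelatin before the experiments. The sources used here do not say whether the Tet2-KO line is 1 clone. The study calls its genome-wide replicates biological without saying what separated them, and the labels name no separate cultures, so the spread between replicates may be technical. RNA was not measured in these files, so neither the loss of Nsun2 nor the markers of mES cells could be checked. The Tet2 deletion could be checked in the siNC libraries only. At 5 windows within Tet2 listed for Tet2 KO against WT, the 3 Tet2-KO siNC libraries had 0 reads each, and the WT siNC libraries had 62, 83 and 78.

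Signal is given as RPKM, the reads of a window scaled by its length and by the size of the library, and a region carries the mean over its windows. The siNC libraries held from 8922562 to 14174468 reads and the siNsun2 libraries from 11113092 to 14001348. Replicates 2 and 3 of siNC differed by less than the sampling noise at the windows listed for Tet2 KO against WT (chi-square per degree of freedom 0.958, against 1.44 for replicates 1 and 2), so they count as 1 sample and siNC has n = 2. At the windows listed here no pair of either group differed beyond sampling noise, with values from 0.751 to 0.993 for siNC and from 0.806 to 0.830 for siNsun2. The siNsun2 libraries were in no larger table, so whether they are separate samples could not be checked further, and their n = 3 rests on the labels. A fold change is the log2 ratio of the mean of the 3 siNsun2 libraries to the mean of the 3 siNC libraries, with 0.1 RPKM added to each, and its SD is over the 3 siNsun2 libraries, each against the siNC mean. MeDIP on bulk DNA does not separate the share of methylated cells from the level in each cell, and these libraries have no input to show DNA copy number.

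The sequences below show what the regions are made of, on mm10. The first is the RNA target that the study gives for its IAPEz guide, printed in lower case. The next 4 are stretches of lower regions, written along the strand of the target, with the 36 bases that match it best in capitals. The stretches on chromosomes 11 and 6 are the minus strand and those on chromosome 14 the plus strand.
IAPEz target: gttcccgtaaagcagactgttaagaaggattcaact
chr11:31598901-31599000: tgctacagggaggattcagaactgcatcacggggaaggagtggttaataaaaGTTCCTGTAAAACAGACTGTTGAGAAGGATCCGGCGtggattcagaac
chr14:91992601-91992700: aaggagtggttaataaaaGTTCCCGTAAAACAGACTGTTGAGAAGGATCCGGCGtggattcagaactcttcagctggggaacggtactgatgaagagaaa
chr14:123997901-123998000: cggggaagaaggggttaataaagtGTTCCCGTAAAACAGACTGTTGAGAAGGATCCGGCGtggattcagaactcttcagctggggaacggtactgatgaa
chr6:96151684-96151800: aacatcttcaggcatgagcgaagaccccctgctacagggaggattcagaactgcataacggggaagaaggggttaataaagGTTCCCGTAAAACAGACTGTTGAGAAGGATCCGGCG
The capitals held 29 of the 36 target bases on chromosome 11 and 30 in each of the other 3. The next pair, on the plus strand with CpG sites in capitals, are the repeat-sharing regions without the stretch inside them that had the largest fall and the most windows.
chr17:16759801-16759900: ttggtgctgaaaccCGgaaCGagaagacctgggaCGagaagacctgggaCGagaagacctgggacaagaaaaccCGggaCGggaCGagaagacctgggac
chr2:80978601-80978900: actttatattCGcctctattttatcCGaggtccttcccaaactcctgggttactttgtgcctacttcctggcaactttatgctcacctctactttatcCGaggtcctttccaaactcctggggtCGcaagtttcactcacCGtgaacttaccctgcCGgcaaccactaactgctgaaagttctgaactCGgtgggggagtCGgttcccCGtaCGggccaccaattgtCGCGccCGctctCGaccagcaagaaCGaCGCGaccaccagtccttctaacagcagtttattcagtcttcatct
Among the lower regions outside that group, the following show the Tenm4 intron, a masked repeat of chromosome 7, an exon of Zc3h13 and the first 300 bases of the Taf1a region. Each is on the plus strand with CpG sites in capitals.
chr7:96807901-96808000: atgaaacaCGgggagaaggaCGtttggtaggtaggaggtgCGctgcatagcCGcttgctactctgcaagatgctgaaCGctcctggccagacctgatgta
chr7:8348601-8348700: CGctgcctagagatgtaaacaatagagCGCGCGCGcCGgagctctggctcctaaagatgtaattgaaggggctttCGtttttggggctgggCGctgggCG
chr14:75323501-75323600: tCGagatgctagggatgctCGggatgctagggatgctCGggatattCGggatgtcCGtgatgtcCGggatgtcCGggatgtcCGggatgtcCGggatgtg
chr1:183391001-183391300: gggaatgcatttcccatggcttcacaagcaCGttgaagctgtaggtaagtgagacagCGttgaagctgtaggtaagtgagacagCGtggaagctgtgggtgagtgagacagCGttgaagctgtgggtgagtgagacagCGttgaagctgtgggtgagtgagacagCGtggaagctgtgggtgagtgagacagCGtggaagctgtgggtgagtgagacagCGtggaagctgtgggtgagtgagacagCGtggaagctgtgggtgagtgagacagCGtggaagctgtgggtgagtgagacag
The Taf1a sequence is a tandem repeat with a CpG in most units. The higher regions in Fbh1, in an intron of Thada and on chromosome 15, in the same form, carried few CpG sites.
chr15:75086601-75086900: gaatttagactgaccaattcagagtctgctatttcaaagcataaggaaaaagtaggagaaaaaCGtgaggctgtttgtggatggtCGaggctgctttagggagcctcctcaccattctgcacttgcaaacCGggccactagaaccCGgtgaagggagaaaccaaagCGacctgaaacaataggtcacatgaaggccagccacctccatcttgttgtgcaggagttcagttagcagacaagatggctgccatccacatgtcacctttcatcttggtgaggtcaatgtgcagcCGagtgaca
chr17:84465201-84465300: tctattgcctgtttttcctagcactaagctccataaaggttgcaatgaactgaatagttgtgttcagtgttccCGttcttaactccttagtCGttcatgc
chr2:11746601-11746900: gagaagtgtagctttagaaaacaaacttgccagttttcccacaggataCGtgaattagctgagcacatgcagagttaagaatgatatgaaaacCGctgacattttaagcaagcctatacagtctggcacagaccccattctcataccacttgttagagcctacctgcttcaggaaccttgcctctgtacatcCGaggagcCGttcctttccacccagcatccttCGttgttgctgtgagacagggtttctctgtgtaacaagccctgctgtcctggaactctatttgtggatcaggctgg

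All 165 lower and all 10 higher windows had the 3 siNsun2 libraries on one side of the 3 siNC libraries. This held for 100% of the 244 listed windows, since the authors had listed only windows that differed in these same libraries. A refit with edgeR's quasi-likelihood test called the same 165 windows lower and 10 higher, with a largest adjusted p of 1.31e-07. Of all listed windows, 67.6% were called lower and 32.4% higher, so the calls carry no information beyond the listing. With size factors of DESeq2 taken from the listed windows, the split became 57 lower and 13 higher in edgeR and 35 lower and 12 higher in the Wald test of DESeq2.

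The median log2 fold change of the lower windows was -0.79 ± 0.01 (SD, n = 3), with a range from -2.29 to -0.50. With TMM factors taken from the listed windows this median was -0.20, and that of the higher windows was 1.61. Each siNsun2 library gave nearly the same median, at -0.78, -0.77 and -0.79. The higher windows had a median of 1.02 ± 0.09 (SD, n = 3), with a range from 0.62 to 2.04. As a share of each library, the lower windows held 0.361%, 0.352% and 0.342% with siNC, against 0.217%, 0.215% and 0.210% with siNsun2. A window with few reads could be listed only if its fall was large, so the listing itself ties the size of the fall to depth. The 42 lower windows with the fewest reads, from 87 to 644 over the 6 libraries, had a median of -1.02, and the 41 with the most, from 1477 to 6833, had -0.63. The relative methylation score, which corrects the signal for CpG density on a scale from 0 to 1, moved the same way at all 165 and all 10 windows, by group means. The score is computed from the same reads, so its direction was set by the listing and adds no support. Its median went from 0.587 to 0.550 in the lower windows and from 0.510 to 0.563 in the higher ones.

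**Figure D1:**
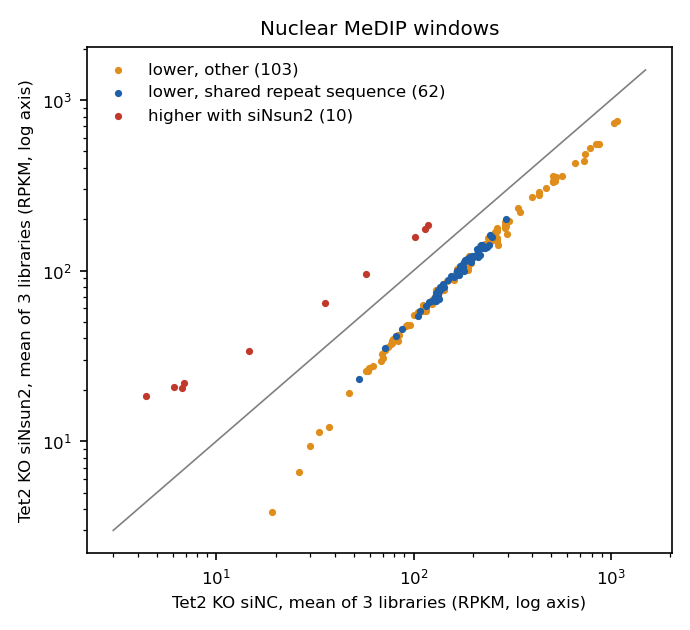
Mean MeDIP signal of each of the 175 nuclear windows with siNC (x axis) and with siNsun2 (y axis), both in RPKM on log axes, and the grey line marks equal signal. The 10 higher windows lie above the line and the 165 lower windows below it, where the 62 windows sharing repeat sequence and the 103 others lie along the same band.

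The windows differed from the genome in sequence. The lower windows held a median of 5 CpG sites, compared with 0 over all 26474739 reference windows of that length, and a median GC content of 56.0% against 42%. At least 3 CpG sites were present in 88.5% of lower windows, in 10% of higher windows and in 7.52% of reference windows. The higher windows held a median of 2 CpG sites. The windows listed for Tet2 KO against WT, which MeDIP also selected, had a median of 4 CpG sites and 55.0% GC, so richness in CpG sites is shared with that list.

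The 33 repeat-sharing regions comprised 62 windows, and each region held a run of 20 bases, on either strand, that also occurred in another of them. All 62 windows were soft-masked as repeat over their whole length, compared with 16.2% of reference windows and 56.8% of those listed for Tet2 KO against WT. The 62 were grouped by shared sequence, so their share is not that of the lower windows as a set. Of all 165 lower windows, 38.8% were masked over their whole length. None of the 33 regions was higher with siNsun2. Runs of 16 bases gave the same 33 regions in number, and runs of 32 bases gave 32. The middle 32 bases of a window had a median of 262 copies in the reference, from 1 to 1022, and the aligner placed each read at a single best position. The middle sequence occurred once at chr8:20946201-20946300 only. At the other windows a fall can therefore not be assigned to 1 copy. The regions were intergenic in 21 cases and lay in introns of protein-coding genes in 10, among them Kat6b, a histone acetyltransferase, Fgf14 and Enox1. None overlapped an exon of a protein-coding gene.

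The signal of the repeat-sharing regions was lower in every siNsun2 library. The median log2 fold change over the 62 windows was -0.77 ± 0.02 (SD, n = 3), and the windows ranged from -1.19 to -0.55. Their mean signal was 171, 171 and 166 RPKM in the siNC libraries and 99.4, 99.3 and 101 RPKM in the siNsun2 libraries. The siNC libraries were thus close together and well above all 3 siNsun2 libraries. The intergenic region chr14:91992601-91992900, whose first window is printed above, had 199, 212 and 202 RPKM with siNC and 118.78, 104 and 119.03 RPKM with siNsun2, a log2 fold change of -0.84 ± 0.11 (SD, n = 3). The 4-window region of chromosome 11, from 31598601 to 31599000, had 198, 185 and 177 RPKM with siNC and 108, 107 and 113 RPKM with siNsun2, a log2 fold change of -0.77 ± 0.04 (SD, n = 3). In an intron of Fam19a1, a gene for a secreted chemokine-like protein, the region chr6:96151501-96151800 had 129, 126 and 115 RPKM with siNC and 72.3, 53.1 and 63.9 RPKM with siNsun2 (-0.96 ± 0.22, SD, n = 3). The region chr2:80978601-80978900 had 115, 108 and 104 RPKM with siNC and 63.9, 55.2 and 58.1 RPKM with siNsun2 (-0.88 ± 0.11, SD, n = 3). The largest fall of the group was at chr17:16759801-16759900, where 57.2, 49.8 and 52.2 RPKM became 27.9, 19.3 and 22.3 RPKM (-1.19 ± 0.27, SD, n = 3). In none of these regions did the groups overlap, as at 100% of the 244 listed windows.

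The IAPEz target was used as a probe for what these repeats are. It was searched on both strands without gaps, and a match of at least 27 of its 36 bases was counted, a limit set after the values were seen. Within 1 kb of the region, 32 of the 33 repeat-sharing regions had such a match, 0 of the 55 other lower regions and 0 of the 6 higher regions. The best match near any of those 61 regions was 22 bases. Among the 32, the lowest best match was 27 bases, on the limit itself, at chr17:54760101-54760200, followed by 28 bases in 2 regions. By windows, 98.4% of the 62 were within 1 kb of a match, compared with 0.337% of reference windows and 13.6% of the windows placed in the Tet2-KO-against-WT list. The 62 were grouped by sequence shared between regions, so copies of one repeat fall together there by that rule. Their share is therefore not like that of an ungrouped list. Of all 165 lower windows, 61 were within 1 kb of a match. The exception was a single window in an intron of Slc7a2, a transporter of cationic amino acids, whose best match was 20 bases. A match lay inside the region itself in 16 regions on 10 chromosomes, with 27 to 30 bases. The reference held 2076 windows with 33 or more of the bases and 980 with all 36, and 0 of the 175 windows were among them. The window chr17:16759801-16759900 lay beside such a close copy, 167 bp before a match of 34 bases. Whether other close copies had signal that did not change cannot be read from a list of changed windows. The 61 windows near a match sat from 167 bp before it to 320 bp after it along the strand of the target, with a median of 80 bp after, and 55 were within 200 bp.

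**Figure D2:**
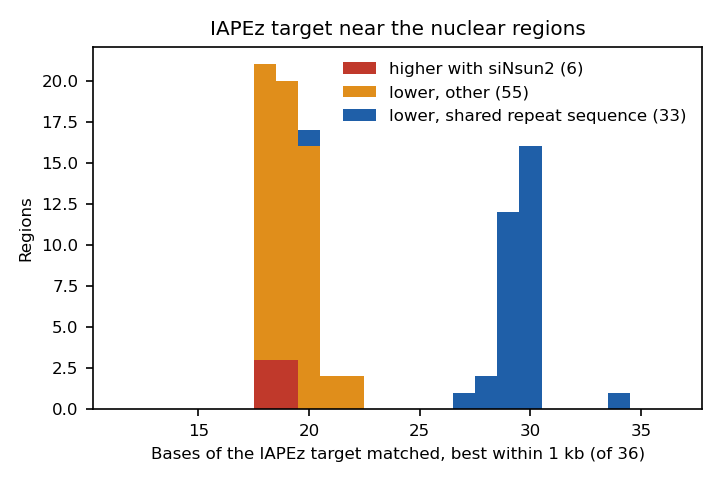
Number of regions (y axis) by the best ungapped match to the 36-base IAPEz target within 1 kb (x axis, bases matched), coloured by group. Of the 33 repeat-sharing regions 32 lie at 27 bases or more, and the 55 other lower and 6 higher regions all lie at 22 or fewer.

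**Figure D3:**
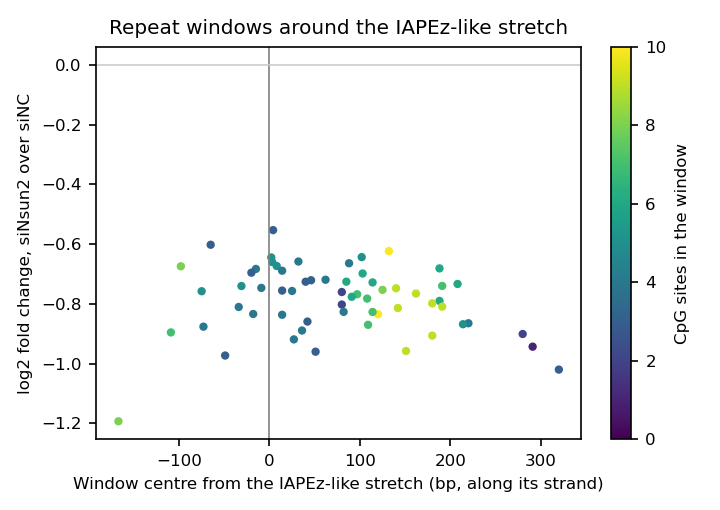
Log2 fold change of siNsun2 over siNC (y axis) of the 61 repeat windows against the distance in bp of their centre from the IAPEz-like stretch along its strand (x axis), with the colour giving the CpG sites per window. All points lie below 0, between -167 and 320 bp, and 48 of the 61 lie after the stretch.

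The other 55 lower regions comprised 103 windows, with a median log2 fold change of -0.84 ± 0.05 (SD, n = 3). Of these windows 75.7% had no masked base, 54.4% had a middle sequence found once in the reference, and 71.8% overlapped a protein-coding gene. No masked base was present in 34.9% of reference windows, and 39.3% overlapped a protein-coding gene. For the windows listed for Pspc1 KO these 2 shares were 63.1% and 52.9%, and for Tet2 KO against WT 18.0% and 29.9%. The 103 exclude the masked repeat-sharing group. Over all 165 lower windows the shares were 47.3% and 56.4%. Among the 103, an exon was overlapped by 22.3% and a transcription start lay within 1 kb of 15.5%, compared with 4.44% and 2.55% of reference windows. For the windows listed for Tet2 KO against WT the values were 5.42% and 3.95%, for those listed for Pspc1 KO 25.2% and 13.7%, and for the 30 placed windows listed for siNsun2 in WT 30% and 56.7%. Both shares were higher in that last list than among the 103 windows.

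In an intron of Tenm4, a teneurin of the nervous system, the window printed above had 23.5, 25.6 and 29.6 RPKM with siNC and 9.90, 5.00 and 4.77 RPKM with siNsun2, a log2 fold change of -1.99 ± 0.58 (SD, n = 3). Of the siNsun2 libraries, replicate 1 had about as much signal as the other 2 together. At an exon of Pex14, a docking protein of peroxisomal import, chr4:148961301-148961400 had 29.1, 31.3 and 29.6 RPKM with siNC and 6.30, 10 and 11.9 RPKM with siNsun2 (-1.66 ± 0.47, SD, n = 3). At an exon of Prdm15, a zinc-finger factor known for its part in naive pluripotency, chr16:97799101-97799200 had 35.9, 31.3 and 32.5 RPKM with siNC and 10.8, 11.4 and 11.9 RPKM with siNsun2 (-1.54 ± 0.07, SD, n = 3). Here the siNsun2 libraries were close together. The masked window of chromosome 7 had a log2 fold change of -1.62 and an intergenic window at chr12:77508001-77508100 one of -1.21. Introns of Asic2, an acid-sensing ion channel, Spats2l and Rbpj, the DNA-binding effector of Notch, had log2 fold changes of -1.28, -1.17 and -1.17. An exon of Zc3h13, a subunit of the RNA m6A methyltransferase complex, had -1.15. With chr17:16759801-16759900 of the repeat-sharing group these are the 10 regions with the largest fall in mean signal over their windows, among regions with a mean of at least 20 reads per window and library. An intergenic window below that mean, chr17:73880501-73880600, fell by 2.29 from 16.8, 18.5 and 21.9 RPKM to 0.900, 5.00 and 5.57 RPKM, the last set being 1, 7 and 7 reads.

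**Figure D4:**
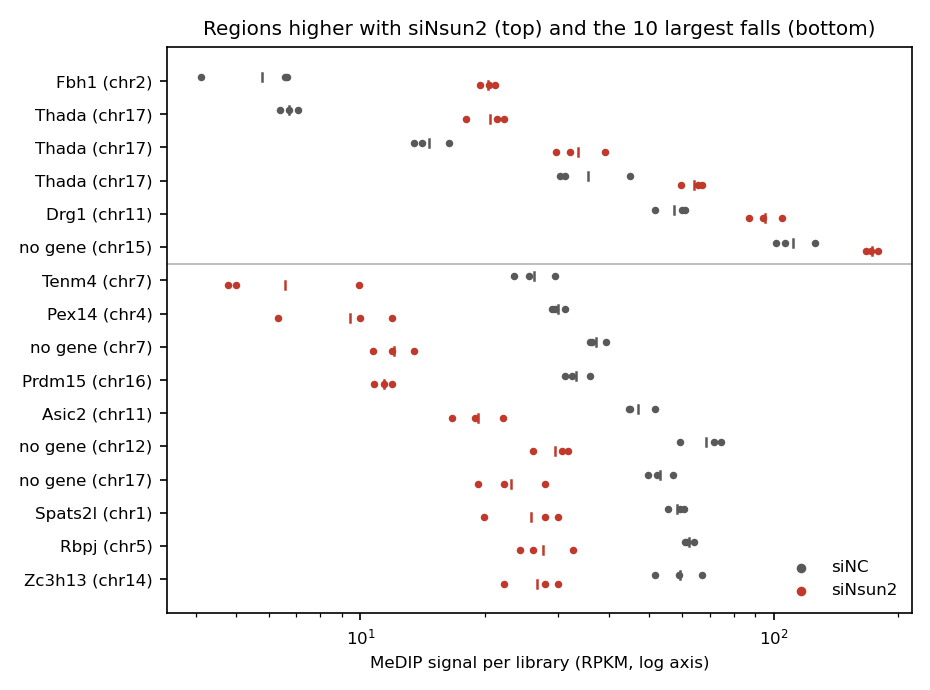
MeDIP signal per library (x axis, RPKM on a log axis) in the 6 regions higher with siNsun2 and the 10 lower regions with the largest falls, labelled by gene and chromosome, with siNC in grey and siNsun2 in red and short bars at the mean of 3 libraries. The 2 colours do not overlap in any row, as at 100% of the 244 listed windows. The 2 Tenm4 siNsun2 libraries at 4.77 and 5.00 RPKM sit well apart from the third at 9.90.

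Exons or starts of protein-coding genes were reached by 19 lower regions. The Taf1a region, chr1:183391001-183391400, begins in coding sequence of a subunit of the selectivity factor of RNA polymerase I and runs into an intron, which holds 3 of its 4 windows. Its tandem repeat is printed above. It had 244, 233 and 215 RPKM with siNC and 139, 141 and 121 RPKM with siNsun2 (-0.79 ± 0.12, SD, n = 3). The strongest signal of all regions was at the start of Sfi1, a centrin-binding protein of the centrosome, which overlaps Drg1. There chr11:3193401-3193600 had 1101, 1044 and 1029 RPKM with siNC and 777, 730 and 729 RPKM with siNsun2 (-0.51 ± 0.05, SD, n = 3), and the neighbouring chr11:3192901-3193200 fell by 0.61. The noncoding Gm12735 overlaps the former. At the 2 windows of chr11:3193401-3193600, the WT input libraries of the Pspc1 comparison had 115 and 122 times the signal of even coverage. The part of DNA copy number was not tested. The fall there was smaller than the shift of 0.59 given by TMM factors from the listed windows. Safb2, a nuclear matrix protein, fell by 1.06 in a CpG-rich region 415 bp from a start, and Zdhhc8, a palmitoyltransferase, fell by 1.01 at 319 bp. Coding exons of Fat1, a giant cadherin, Odf1, a protein of the sperm tail, and Nfatc1, a calcium-regulated transcription factor, had log2 fold changes of -1.05, -0.99 and -0.99. Exons of Arhgef18, Srgap2, Zfhx3 and Evpl had log2 fold changes between -0.94 and -0.88. An exon of Bud13 with 879 copies of its middle sequence had -1.08, and the annotated gene Gm8994 had -0.71 across its start. The regions 623 bp from the start of Gm13696 and 433 bp from that of Gm13694 fell by 0.70 and 0.85. These 2 share sequence with each other, and their middle sequences had 7 copies each. The 3 siNC and 3 siNsun2 libraries did not overlap in any of the 19, as at 100% of the 244 listed windows.

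The longest region was in an intron of Armc8, a subunit of the CTLH ubiquitin ligase, with 6 windows and 40 CpG sites. It had 219, 229 and 211 RPKM with siNC and 129, 125 and 115 RPKM with siNsun2 (-0.84 ± 0.08, SD, n = 3). The 5-window region of the unplaced contig JH584304, from 33901 to 34400, had 691, 604 and 618 RPKM against 425, 416 and 402 RPKM (-0.62 ± 0.04, SD, n = 3). Of 14 regions with 3 windows, the 4 with the largest falls were taken, among them introns of Gpc5, a glypican, and Cmip, which fell by 0.96 and 0.94. Other long regions are those of Taf1a and Gm13694 and 3 of the repeat-sharing group, on chromosomes 11, 2 and 6.

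The 6 higher regions were weaker in signal and poorer in CpG sites. In an intron of Fbh1, a DNA helicase that restrains homologous recombination, 3 windows at chr2:11746601-11746900 had 4.11, 6.64 and 6.58 RPKM with siNC and 19.5, 20.5 and 21.2 RPKM with siNsun2. This was the largest rise, with a log2 fold change of 1.80 ± 0.06 (SD, n = 3). The 3 windows held from 1 to 11 reads in the siNC libraries. The mean was 16.6 reads per window and library, below the 20 required of the largest falls. Near the start of Thada, a gene first described at breakpoints of thyroid adenomas, 3 separate windows rose. The one nearest the start, chr17:84465201-84465300, had 6.72, 6.40 and 7.05 RPKM with siNC and 18.0, 21.4 and 22.3 RPKM with siNsun2 (1.60 ± 0.16, SD, n = 3). Its mean of 17.2 reads per library was also below 20. The windows 1216 and 1516 bp from the start rose by 1.19 and 0.85, and the last reaches an untranslated exon. At chr11:3199701-3199800 in an intron of Drg1, a GTP-binding protein, signal rose from 51.5, 61.1 and 59.97 RPKM to 94.5, 87.1 and 105 RPKM (0.73 ± 0.13, SD, n = 3). This window lies in the same gene as the Sfi1 and Drg1 windows that fell. The intergenic region chr15:75086601-75086900 rose by 0.63, from 126, 101 and 107 RPKM to 179, 172 and 167 RPKM. The siNsun2 and siNC libraries did not overlap in any of the 6, as at 100% of the 244 listed windows.

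The gene lists drawn up for this tissue and treatment were too short to be read against so few windows. Of all 22028 protein-coding genes, 0.291% overlapped a window or lay within 5 kb of one, a share at which the 123 listed genes would give 0.357 genes. Overlap or a distance under 5 kb was found for 0 of 10 RNA m5C writers and readers, 0 of 11 genes of the DNA methylation machinery, 0 of 13 genes for MBD proteins and the PR-DUB complex, and 0 of 11 for Polycomb ubiquitination of H2AK119. It was also found for 0 of 40 imprinted genes, 0 of 18 germline genes silenced by 5mC and 0 of 20 pluripotency genes. These counts are at the background and say nothing about the lists.

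The level in WT cells was available for 42 of the lower windows, in 22 regions, which were also listed for Tet2 KO against WT. Both comparisons use the same Tet2-KO siNC libraries, so the values are given side by side and no relation is drawn from them. Among the repeat-sharing windows, 19 were higher and 1 was lower in Tet2-KO siNC than in WT siNC. The medians of the 19 were 114, 108 and 105 RPKM in the WT siNC libraries, 197, 194 and 187 RPKM in the Tet2-KO siNC libraries and 114, 121 and 120 RPKM in the Tet2-KO siNsun2 libraries. Of the other lower windows, 13 were higher and 9 lower in Tet2-KO siNC than in WT siNC. For the 13 the medians were 169, 155 and 172 RPKM in WT siNC, 278, 261 and 269 RPKM in Tet2-KO siNC and 177, 163 and 177 RPKM in Tet2-KO siNsun2. An intron of Bcat1, a branched-chain amino acid transaminase, had means of 36.7, 112 and 62.9 RPKM in these groups. For the 9 the medians were 497, 418 and 415 RPKM in WT siNC, 276, 260 and 245 RPKM in Tet2-KO siNC and 157, 154 and 139 RPKM in Tet2-KO siNsun2. The 4 Taf1a windows and the 3 in Bfar, a regulator of apoptosis, are among these 9. In all 9 Tet2-KO siNsun2 was the lowest of the 3 groups, which follows from how they were sorted. By group means, Tet2-KO siNsun2 lay between the other groups at 12 of the 19 repeat-sharing windows and at 5 of the 13 others. It was the lowest at the rest of those windows.

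Only 2 windows were listed for siNsun2 in both genotypes, both in the overlap of Sfi1 and Drg1. At chr11:3193001-3193100 the WT libraries had 518, 478 and 466 RPKM with siNC and 698, 643 and 650 RPKM with siNsun2. The Tet2-KO libraries had 576, 569 and 564 RPKM with siNC and 370, 374 and 329 RPKM with siNsun2. The signal was thus higher with siNsun2 in every WT library and lower in every Tet2-KO library. The log2 fold change was 0.45 in WT and -0.67 in Tet2 KO, a difference of -1.12 ± 0.10 (SE of the interaction term of edgeR, 12 libraries). The adjacent window, chr11:3193101-3193200, gave 0.42 and -0.59, a difference of -1.003 ± 0.09 (SE, 12 libraries). TMM factors from the listed windows shifted the Tet2-KO fold changes by 0.59, as much as the fall at this adjacent window. Its sign in Tet2 KO thus depends on the scaling. Replicates 2 and 3 of siNC differed by less than the sampling noise in WT too (0.953), and with both pairs summed, leaving 10 libraries, the differences were -1.10 ± 0.12 and -0.99 ± 0.11 (SE). The interaction term called 100% of the 2 windows, an outcome fixed by their being listed in each genotype with opposite signs, so it is a description and no p is given. The 2 windows also share fragments. These windows and 3 more near them were also listed for Pspc1 KO, where input libraries exist. The WT input means there ran from 14.2 to 46.0 RPKM, or 37.6 to 122 times the 0.378 RPKM of even coverage, although the middle sequence of each occurs once in the reference. The part of DNA copy number in the change with siNsun2 was not tested.

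**Figure D5:**
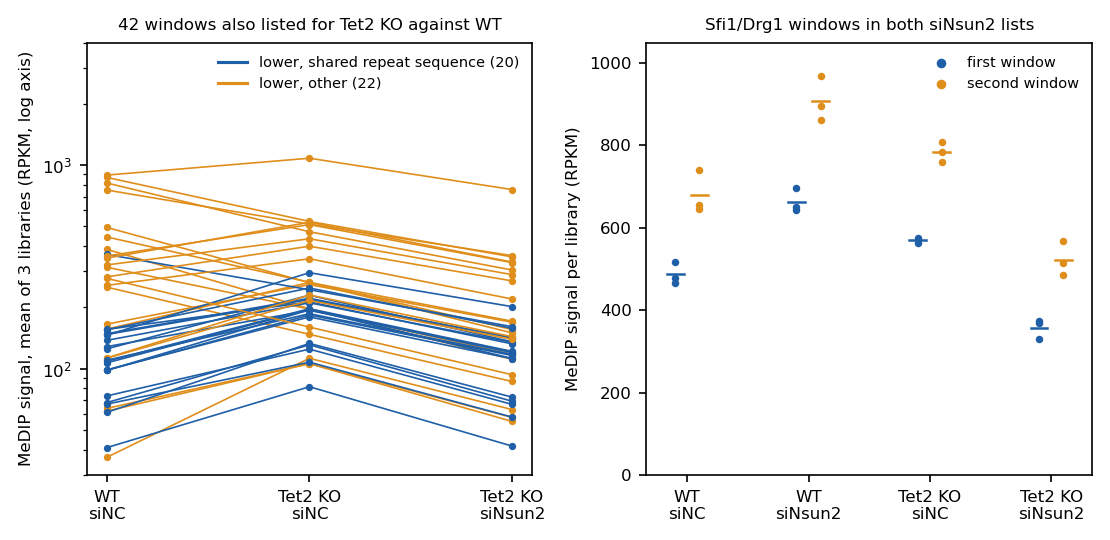
Left, mean MeDIP signal of 3 libraries (RPKM, log axis) in WT siNC, Tet2-KO siNC and Tet2-KO siNsun2 at the 42 lower windows also listed for Tet2 KO against WT, 1 line per window. Right, signal per library (RPKM) in the 2 neighbouring Sfi1 and Drg1 windows, with bars at the mean, where siNsun2 libraries lie above siNC in WT and below it in Tet2 KO.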

How the data were processed

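Reads were trimmed (Trimmomatic 0.39), aligned to mm10 (Bowtie2 2.4.1) and freed of duplicates (Picard) by the authors, who compared groups with MEDIPS and edgeR in windows of 100 bp, with at least 10 reads per window and no copy-number correction. The deposited tables list only windows with a Bonferroni-adjusted p under 0.1, and their group means, fold changes and p-values were not used. The deposited counts are raw reads per window. The RPKM values and the relative methylation score, a fraction corrected for CpG density, are those of the authors. The CpG coupling factor, a score deposited by the authors, equalled the CpG count of the reference at all 175 windows.

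Library totals were recovered from count and RPKM. Counts of all 244 listed windows were refitted with edgeR 4.0.16 (R 4.3.3; quasi-likelihood, group as the only term, recovered totals, Benjamini-Hochberg at 0.05), after the procedure was tested on simulated data. DESeq2 1.42.0 and limma 3.58.1 served as alternatives. Direction was the sign of the log2 ratio of mean RPKM plus 0.1. GRCm38.p6, the same build, and GENCODE M21 gave sequence and annotation. Copies of the middle 32 bases were counted over the chromosomes and unplaced contigs. The contig JH584304 was identified by its CpG counts, which matched at 73 of 73 windows. Named are all higher regions, the 10 lower regions with the largest fall in mean RPKM and a mean of 20 or more reads per window and library, the 10 lower regions with the most windows (ties by the larger fall) and those at an exon or within 1 kb of a start of a protein-coding gene. Of the longest, 1 is not reported here. Other regions given by name were chosen after their values were seen. The windows and lists were chosen with earlier results of these data known. Counting error alone is covered by the depth, since reads had no molecular identifiers.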

Additional observations from a re-analysis of the deposited data

Results flagged for a closer look

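The effect of siNsun2 had opposite signs in the 2 genotypes at the 2 neighbouring windows of Sfi1 and Drg1 that were listed in both. At chr11:3193001-3193100 the effect in Tet2 KO minus that in WT was -1.12 on the log2 scale, with all 3 siNsun2 libraries above siNC in WT and all 3 below it in Tet2 KO. At chr11:3193101-3193200 the difference was -1.003, with the same order of libraries. Both windows were listed because they changed in each genotype in these same libraries, so the difference has no independent test here. TMM factors from the listed windows shifted the Tet2-KO fold changes by 0.59, as much as the fall of 0.59 at the second window. The WT input libraries had 47.4 and 81.2 times the signal of even coverage at these windows. The part of DNA copy number was not tested.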

How the results depend on the processing

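All 165 lower and 10 higher windows were called by the edgeR exact test, by limma, by DESeq2 with the recovered totals, with nuclear windows alone, with at least 60 reads, with siNC replicates 2 and 3 summed, and without any 1 library (165 to 165 and 10 to 10). Scaling on the listed windows themselves shifted all windows by 0.59 on the log2 scale with TMM, which called 84 lower and 10 higher windows, left 155 of the 165 below 0 and gave medians of -0.20 and 1.61. DESeq2 size factors called 57 lower windows in the edgeR fit and 35 in the Wald test of DESeq2, with 13 and 12 higher ones. Windows with 1 reference copy, 65 in all, gave 57 lower and 8 higher calls and medians of -0.93 and 1.40. Taking 1 window per region moved the lower median to -0.84, and leaving out the repeat-sharing windows, an alternative chosen after seeing the data, also to -0.84. Leaving out 1 library gave lower medians from -0.82 to -0.78 and higher medians from 0.96 to 1.10. Merging windows up to 200 bp apart gave 86 lower and 5 higher regions. The difference between genotypes at the 2 shared windows ranged from -1.16 to -1.06 and from -1.06 to -0.96 without 1 library, and was -1.10 and -0.99 with siNC replicates 2 and 3 of each genotype summed, an alternative also chosen after seeing the data.

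Same-numbered libraries deviated together with correlations of 0.13, -0.01 and 0.23 over the nuclear windows, and of 0.18, 0.13 and 0.12 over all listed windows. With the replicate block the calls were 165 lower and 10 higher, and the 2 genotype differences were -1.12 and -1.01. Over all listed windows each library correlated best with its own number, a hint from the data and not from the design, since what the numbers stand for is not stated. The smallest fall listed was 0.50 on the log2 scale, and the siNC and siNsun2 libraries have no input here.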
